A study of Mus musculus with 6 samples.

Results

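The receptors of the common gamma chain cytokines and the SOCS proteins that switch those receptors off were followed in CD4 T cells that carry the transgenic CBir1 receptor, which recognises a flagellin of gut bacteria. The 9 genes were listed by name: the receptor chains Il2rg, Il2rb, Il7r, Il4ra, Il15ra and Il21r and the feedback inhibitors Cish, Socs1 and Socs3. They are 9 of the 49315 genes in the count tables, and all 9 were among the 12838 genes that passed the filter on low counts. Donor cells were CD45.1 CBir1 transgenic CD4 cells that lacked CD44, and C57BL/6 mice with the CD45.2 allele received them on day 0. On days 1 and 7 the recipients were injected with CBir1 flagellin (50 ug) together with CT (1 ug).

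There were 6 libraries, 1 per group. The MEP1+Metformin+Rapamycin library (the combination), the MEP1+Rapamycin library and the MEP1+Metformin library came from mice given 3 ug of the peptide MEP1 on days 28 and 35, followed by 5 consecutive days of inhibitor in the vehicle CMC. Rapamycin inhibits mTOR complex 1, and metformin lowers mitochondrial energy production and activates AMPK. The MEP1+CMC mice received MEP1 and vehicle. The No treatment mice received neither MEP1 nor an inhibitor in that period. Per the protocol, every recipient then met MEP1 again (3 ug, day 56), and the remaining donor cells were taken from spleens by sorting on day 63, weeks after the last inhibitor. The sixth library was a control of naive CBir1 transgenic CD4 cells from the spleen that carried the same receptor. The sources used here do not give whether a library held 1 mouse or a pool. In the count table, the No treatment column carries a header that says no challenge. This goes against the label and protocol, which were followed.

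The common gamma chain, encoded by Il2rg, is shared by the receptors for IL-2, IL-4, IL-7, IL-9, IL-15 and IL-21. It pairs with a chain that gives each receptor its specificity, and the pair signals through JAK1 and JAK3 to STAT proteins, STAT5 for IL-2, IL-7 and IL-15, STAT6 for IL-4 and STAT3 for IL-21. IL-7 and IL-15 keep naive and memory T cells alive. CIS (Cish), SOCS1 and SOCS3 are induced by STAT signalling and in turn block the receptors or the JAKs.

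Total counts ran from 26139000 in the naive library to 60622310 in No treatment. All 10 CD4 T-cell markers had counts in all 6 libraries, with summed levels of 6313 to 8902 TMM CPM, which are CPM corrected with edgeR's trimmed-mean factors. The sum of 12 macrophage and monocyte markers was 304.0 to 564.4 TMM CPM in the 4 libraries given MEP1 and 2779 TMM CPM in No treatment. It was 43.1 TMM CPM in the naive library, where Fcgr1 and Cd14 were at 0. The sum of 10 B-cell markers was 125 TMM CPM in the naive library and 105 TMM CPM in the combination. It was 36.5 TMM CPM in MEP1+Rapamycin, 33.9 TMM CPM in MEP1+Metformin, 57.0 TMM CPM in MEP1+CMC and 32.3 TMM CPM in No treatment. Xist, which is transcribed from an inactive X chromosome, was at 0.218 to 0.486 TMM CPM in the 3 inhibitor libraries, 262 TMM CPM in MEP1+CMC, 24.2 TMM CPM in No treatment and 43.1 TMM CPM in the naive library. The Y-linked gene Ddx3y was at 62.0 to 95.8 TMM CPM in the 3 inhibitor libraries, 0.307 TMM CPM in MEP1+CMC, 35.9 TMM CPM in No treatment and 0.377 TMM CPM in the naive library. Inhibitor and sex of the cells therefore cannot be told apart in any comparison with MEP1+CMC. In Ddx3y the naive library was also split from every transferred library but MEP1+CMC, so sex stands in those comparisons too. With TMM the median log2 ratio of all tested genes was -0.13 for MEP1+Rapamycin over MEP1+CMC, -0.20 over No treatment and -0.11 over MEP1+Metformin, and 0.13 for the combination over MEP1+Rapamycin. Ratios that involve MEP1+Rapamycin are to be read against those medians.

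Per kb of exon, Il2rg had the highest level of the 9 genes in all 6 libraries, from 320.1 to 383 TMM CPM per kb, and Il15ra had the lowest in all 6, from 2.16 to 10.9 TMM CPM per kb. Cish ranked next to last in all 6, with 7.24 to 13.5 TMM CPM per kb. The partner chains of the other receptors lay in between. In the naive library the order was Il2rg, Il21r with 143 TMM CPM per kb, Il4ra with 109 TMM CPM per kb and Il7r with 91.0 TMM CPM per kb. There Il2rb ranked below all but Cish and Il15ra, at 20.2 TMM CPM per kb. In the 5 transferred libraries Il4ra instead ranked below all but Cish and Il15ra, at 21.4 to 36.0 TMM CPM per kb.

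**Figure D1:**
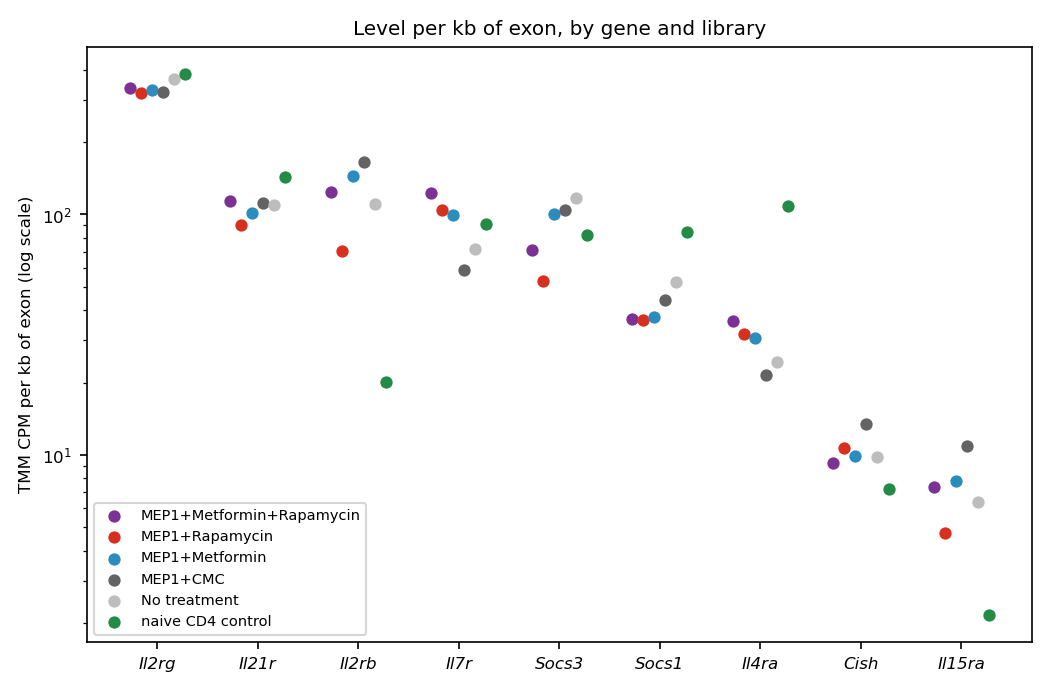
Level of each of the 9 genes in TMM CPM per kb of exon (log axis), with 1 point per library coloured by group. Il2rg lies on top at 320.1 to 383 and Il15ra at the bottom at 2.16 to 10.9, while Il2rb and Il4ra change places between the naive library and the 5 transferred libraries.

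Il2rg, on GRCm38 chromosome X from 101264378 to 101268255 (minus strand), was almost level. It measured 799 TMM CPM in the combination, 764 TMM CPM in MEP1+Rapamycin, 782 TMM CPM in MEP1+Metformin, 773 TMM CPM in MEP1+CMC, 872 TMM CPM in No treatment and 915 TMM CPM in the naive library. The highest library exceeded the lowest 1.20-fold, the narrowest range of the 9 genes, except with library totals, where Il2rg spanned 1.37-fold and Il21r 1.24-fold. An overlapping gene on the same strand, Gm20489, shares 30.5% of the Il2rg exon bases and had at most 8 counts in any library, so reads may have been split or left out in that stretch.

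Il2rb, at chromosome 15 from 78480553 to 78495066 (minus strand), encodes the beta chain used by both the IL-2 and the IL-15 receptor. It measured 347 TMM CPM in the combination, 197 TMM CPM in MEP1+Rapamycin, 401 TMM CPM in MEP1+Metformin, 458 TMM CPM in MEP1+CMC, 307 TMM CPM in No treatment and 56.2 TMM CPM in the naive library. Every transferred library was above the naive one, and MEP1+Rapamycin was the lowest of the 5. Il15ra, at chromosome 2 from 11705290 to 11734317 (plus strand), encodes the alpha chain that binds IL-15 and presents it to IL2RB and the common gamma chain. It measured 32.8 TMM CPM in the combination, 21.1 TMM CPM in MEP1+Rapamycin, 34.8 TMM CPM in MEP1+Metformin, 48.3 TMM CPM in MEP1+CMC, 28.3 TMM CPM in No treatment and 9.58 TMM CPM in the naive library. The 6 libraries fell in the same order for Il2rb and Il15ra, MEP1+CMC, MEP1+Metformin, combination, No treatment, MEP1+Rapamycin and naive, under all 5 scalings tried. With TMM, the neighbours in that order differed beyond counting error except for Il15ra between the combination and MEP1+Metformin.

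Il7r, at chromosome 15 from 9506161 to 9529876 (minus strand), encodes the alpha chain of the IL-7 receptor. It measured 393 TMM CPM in the combination, 334 TMM CPM in MEP1+Rapamycin, 321 TMM CPM in MEP1+Metformin, 188 TMM CPM in MEP1+CMC, 231 TMM CPM in No treatment and 292 TMM CPM in the naive library. The 3 inhibitor libraries were above the naive level, and MEP1+CMC and No treatment were below it, except with library totals, where No treatment was above it too. Il4ra, at chromosome 7 from 125552120 to 125579474 (plus strand), encodes the alpha chain of the IL-4 receptor, also used by IL-13. It measured 216 TMM CPM in the combination, 191 TMM CPM in MEP1+Rapamycin, 184 TMM CPM in MEP1+Metformin, 129 TMM CPM in MEP1+CMC, 146 TMM CPM in No treatment and 652 TMM CPM in the naive library. Within the 5 transferred libraries, Il7r and Il4ra followed the same order, combination, MEP1+Rapamycin, MEP1+Metformin, No treatment and MEP1+CMC, under all 5 scalings. They differed at the naive library, which was the highest for Il4ra and lay inside the range of the others for Il7r.

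Il21r, at chromosome 7 from 125603429 to 125633570 (plus strand), encodes the IL-21 receptor chain. It measured 378 TMM CPM in the combination, 300 TMM CPM in MEP1+Rapamycin, 338 TMM CPM in MEP1+Metformin, 372 TMM CPM in MEP1+CMC, 364 TMM CPM in No treatment and 476 TMM CPM in the naive library. The transferred libraries lay within 1.26-fold of each other. The combination and MEP1+CMC did not differ beyond counting error. With TMM, Il21r and Il4ra were both highest in the naive library and next highest in the combination. The summed B-cell markers had the same top libraries, and their part in these levels was not tested.

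**Figure D2:**
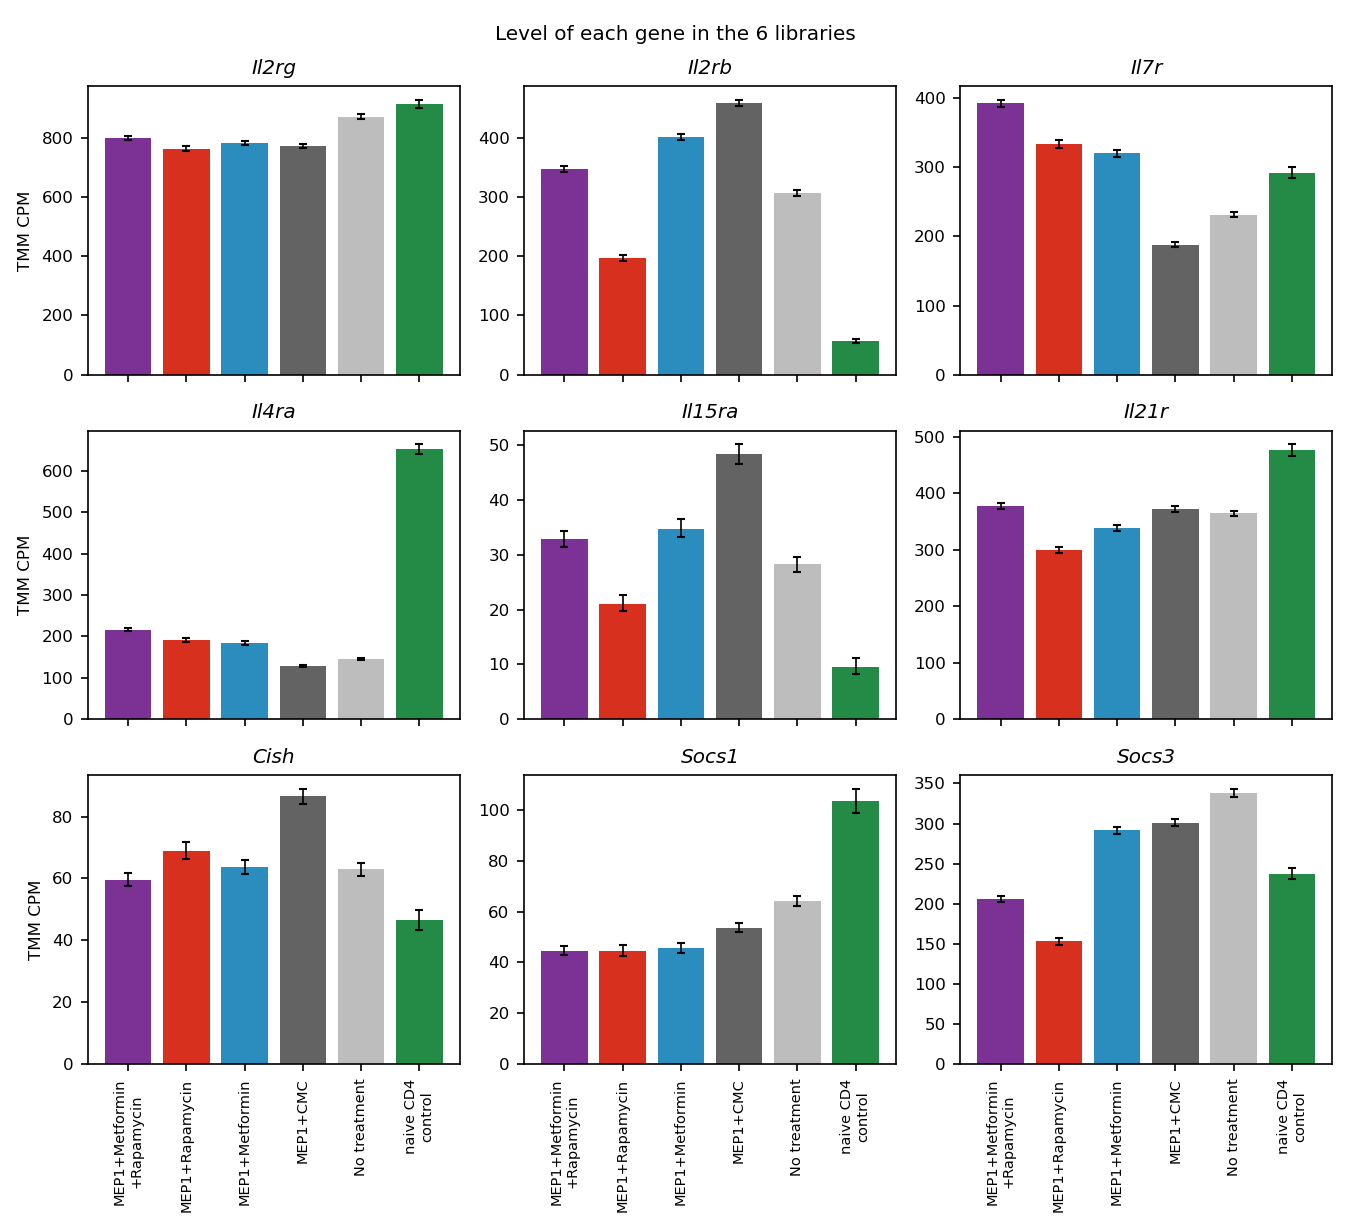
TMM CPM of each gene in the 6 libraries, 1 panel per gene, with bars from 0 and exact 95% Poisson intervals of the count as error bars, which cover counting error only. Il2rb and Il15ra share 1 profile with a low MEP1+Rapamycin bar (197 and 21.1), and Il7r is above 300 in the 3 inhibitor libraries only.

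Cish, at chromosome 9 from 107296026 to 107302784 (plus strand), encodes CIS, which is induced by STAT5 and restrains IL-2 receptor and T-cell receptor signalling. It measured 59.6 TMM CPM in the combination, 69.0 TMM CPM in MEP1+Rapamycin, 63.8 TMM CPM in MEP1+Metformin, 86.5 TMM CPM in MEP1+CMC, 62.96 TMM CPM in No treatment and 46.5 TMM CPM in the naive library. MEP1+CMC was the highest and the naive library the lowest. Socs1, at chromosome 16 from 10783808 to 10785536 (minus strand), encodes an inhibitor that binds JAKs directly and limits interferon gamma and IL-4 signalling. It measured 44.7 TMM CPM in the combination, 44.6 TMM CPM in MEP1+Rapamycin, 45.7 TMM CPM in MEP1+Metformin, 53.6 TMM CPM in MEP1+CMC, 64.2 TMM CPM in No treatment and 104 TMM CPM in the naive library. The 3 inhibitor libraries did not differ beyond counting error, and the naive library was the highest.

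Socs3, at chromosome 11 from 117966079 to 117970047 (minus strand), encodes the inhibitor that docks on gp130, the chain shared by IL-6 family receptors. It measured 206 TMM CPM in the combination, 153 TMM CPM in MEP1+Rapamycin, 291 TMM CPM in MEP1+Metformin, 301 TMM CPM in MEP1+CMC, 338 TMM CPM in No treatment and 237 TMM CPM in the naive library. Both libraries with rapamycin were below the naive level and the other 3 transferred libraries were above it, except with library totals, where the naive library was the lowest.

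STAT dimers bind sites of the form TTCNNNGAA, so the promoters of the feedback genes are shown with those letters in capitals. The windows, from RefSeq on GRCm38.p6, span 250 bases before to 50 after the annotated start, and 8 of the 9 genes matched the table, with 9 windows. The search covered both strands, and the pattern reads the same on both. It was found in 2 non-overlapping copies in Cish, 1 in Socs3 and 1 in Il7r, and in none of the windows of Socs1, Il2rg, Il4ra, Il15ra or Il21r. Of all 32851 windows, 8.30% held it. The same letters spaced 4 bases apart, a form bound by STAT6, were in no member's window and in 6.95% of all windows. The forkhead motif GTAAACA was in 1 window, that of Il21r, and in 3.65% of all windows. The Cish stretch is chr9:107296659-107296688 (plus strand), bases 1 to 30 of the transcript, since the bases before that start lie in exons of longer Cish transcripts. The Socs3 stretch is chr11:117969452-117969616 (minus strand), ending where exons of longer transcripts begin. Il7r is chr15:9529847-9530126 and Socs1 is chr16:10785507-10785786, both on the minus strand and both ending at transcript base 30. Socs1 is printed as the feedback gene without the motif.
Cish: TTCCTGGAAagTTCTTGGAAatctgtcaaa
Socs3: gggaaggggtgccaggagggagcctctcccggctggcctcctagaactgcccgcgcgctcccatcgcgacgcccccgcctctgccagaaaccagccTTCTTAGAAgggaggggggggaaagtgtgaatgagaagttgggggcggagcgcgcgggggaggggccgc
Il7r: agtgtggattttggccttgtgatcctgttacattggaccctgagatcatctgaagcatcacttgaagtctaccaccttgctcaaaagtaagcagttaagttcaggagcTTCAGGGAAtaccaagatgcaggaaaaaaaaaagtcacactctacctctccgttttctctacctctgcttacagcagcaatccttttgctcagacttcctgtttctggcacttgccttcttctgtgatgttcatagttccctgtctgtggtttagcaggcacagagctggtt
Socs1: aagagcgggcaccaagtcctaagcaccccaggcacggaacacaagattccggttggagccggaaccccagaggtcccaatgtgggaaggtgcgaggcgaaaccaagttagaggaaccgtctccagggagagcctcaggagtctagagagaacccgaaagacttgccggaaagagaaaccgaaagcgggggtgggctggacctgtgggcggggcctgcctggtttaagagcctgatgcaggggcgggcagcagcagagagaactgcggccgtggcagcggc
The Cish copies, TTCCTGGAA and TTCTTGGAA, begin at bases 1 and 12 of the transcript. The Socs3 copy, TTCTTAGAA, begins 154 bases before the start and the Il7r copy, TTCAGGGAA, 142 bases before it. A match is a description of the letters, and no binding was measured here. Cish and Il7r, which both hold the motif, differed in their order: Il7r was at its lowest in MEP1+CMC, where Cish was at its highest.

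No treatment was first set against the naive library, which compares cells that had met the antigen with cells that had not. The 2 libraries also differ in transfer into a recipient and in Ddx3y (35.9 against 0.377 TMM CPM). Their shares of rRNA-like reads were 1.00% and 15.4%. Antigen cannot be told apart from these differences. Of the 9 genes, Il2rb and Il15ra were at least 2-fold higher in No treatment with a counting interval past no change, and Il4ra was at least 2-fold lower. Il2rb was 5.46-fold higher (log2 ratio 2.45, 95% counting interval 2.36 to 2.54) and Il15ra 2.95-fold higher (1.56, 1.34 to 1.79). Il4ra was 4.47-fold lower (-2.16, -2.20 to -2.12). Those 3 of 9 calls stand beside 24% of all tested genes. Socs1 had a log2 ratio of -0.69, Socs3 of 0.51, Cish of 0.44, Il21r of -0.39, Il7r of -0.34 and Il2rg of -0.07. The summed macrophage markers were also higher in No treatment (2779 against 43.1 TMM CPM), and their part in these ratios was not tested. Il2rb, Il15ra and Il4ra passed the same rule in the same direction in each of the other 4 transferred libraries. Socs1 passed it as lower in MEP1+Metformin (log2 ratio -1.18), MEP1+Rapamycin (-1.22) and the combination (-1.21). In those 4 libraries Il2rb lay at log2 ratios of 1.81 (MEP1+Rapamycin) to 3.03 (MEP1+CMC) and Il4ra at -2.34 (MEP1+CMC) to -1.59 (combination). No share of all tested genes was computed for these 4 comparisons, which all reuse the naive library. In these bulk libraries, fewer cells that express a gene and less RNA per cell cannot be told apart.

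The 5 transferred libraries together were set against the naive library with edgeR's quasi-likelihood test. Antigen, transfer, the split in Ddx3y from all but MEP1+CMC and the higher naive share of rRNA-like reads (15.4%) cannot be told apart in that contrast. The counts, on 4 residual degrees of freedom, were adjusted by Benjamini-Hochberg over all 12838 genes, and an adjusted p below 0.05 was called. Il2rb rose, with a log2 change of 2.61 (SE 0.47, edgeR adjusted p = 0.0113). Il15ra rose by 1.79 (SE 0.47, edgeR adjusted p = 0.0421). Il4ra fell by 1.91 (SE 0.26, edgeR adjusted p = 0.00351), and Socs1 fell by 1.03 (SE 0.24, edgeR adjusted p = 0.0260). With TMM, each of the 4 had the same direction in 5 of 5 transferred libraries. So did Il2rg, Il21r and Cish, which were not called, and all of these ratios share the naive library. These 4 of 9 genes stand beside 9.78% of all tested genes. The other 5 did not pass: Cish had a log2 change of 0.56 (SE 0.26, edgeR adjusted p = 0.196) and Il21r of -0.44 (SE 0.23, edgeR adjusted p = 0.234), while Il2rg, Il7r and Socs3 had edgeR adjusted p-values of 0.597, 0.994 and 0.858. DESeq2 called 5 of the 9 genes, the same 4 and Il21r (adjusted p = 0.0296). Over all 12838 genes DESeq2 called 3729 and edgeR 1255, so the DESeq2 count stands beside a larger background. Without MEP1+Metformin or without the combination, Il15ra (edgeR adjusted p = 0.0813 and 0.0763) and Socs1 (0.0558 and 0.0579) were not called. With library totals, Socs1 was not called (edgeR adjusted p = 0.0924) and Cish was called as higher, which made 3 higher and 1 lower in place of 2 and 2.

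Whether renewed peptide changed the cells was asked by MEP1+CMC against No treatment. Those libraries also differ in Xist (262 against 24.2 TMM CPM) and Ddx3y (0.307 against 35.9 TMM CPM). Their erythroid and platelet markers summed to 362 against 1701 TMM CPM. Peptide cannot be told apart from these differences. None of the 9 genes differed by 2-fold between those libraries, against 11.5% of all tested genes. The largest log2 ratios were 0.77 for Il15ra (48.3 against 28.3 TMM CPM), 0.58 for Il2rb and 0.46 for Cish, and Il7r was at -0.30. The edgeR test of the 4 libraries given MEP1 against No treatment, on 3 residual degrees of freedom, called none of the 9 genes and 1.90% of all tested genes. At an unadjusted p below 0.05 it held 1, Socs1, with a log2 change of -0.45 (SE 0.19, edgeR adjusted p = 0.281), and DESeq2 held 0 and called 0. Macrophage markers summed to 304.0 to 564.4 TMM CPM in these 4 libraries against 2779 TMM CPM in No treatment, and their part was not tested.

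What each inhibitor left weeks later was asked against MEP1+CMC. Il2rb and Il15ra were lower and Il7r and Il4ra higher in all 3 inhibitor libraries, and the sizes differed between drugs. In MEP1+Rapamycin, Il2rb was 2.33-fold lower (log2 ratio -1.22, 95% counting interval -1.26 to -1.18) and Il15ra 2.29-fold lower (-1.19, -1.31 to -1.08). The sum of 5 NK-cell markers was 2.75 TMM CPM in MEP1+Rapamycin against 9.16 TMM CPM in MEP1+CMC, with 1.70 TMM CPM in the combination and 10.3 TMM CPM in MEP1+Metformin. The sum of 8 erythroid and platelet markers was 54.6 to 93.5 TMM CPM in the 3 inhibitor libraries against 362 TMM CPM in MEP1+CMC. The part of either in the ratios to MEP1+CMC was not tested. These 2 of 9 calls stand beside 11% of all tested genes. Socs3 came just short of the 2-fold rule, at 153 TMM CPM in MEP1+Rapamycin against 301 TMM CPM in MEP1+CMC (-0.98, -1.02 to -0.93). In MEP1+Metformin no gene passed the rule, against 5.63% of all tested genes, and the largest log2 ratios were 0.77 for Il7r and 0.52 for Il4ra. In the combination 1 gene passed, Il7r, which was 2.09-fold higher (1.06, 1.03 to 1.09), against 6.70% of all tested genes. Il7r in MEP1+Rapamycin was 1.77-fold higher and in MEP1+Metformin 1.70-fold higher than in MEP1+CMC. The 3 feedback genes were below MEP1+CMC in all 3 inhibitor libraries, Cish at log2 ratios of -0.54 to -0.33, Socs1 at -0.27 to -0.23 and Socs3 at -0.98 to -0.05. With library totals, Socs3 in MEP1+Metformin was above MEP1+CMC. The 3 comparisons share the MEP1+CMC library.

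**Figure D3:**
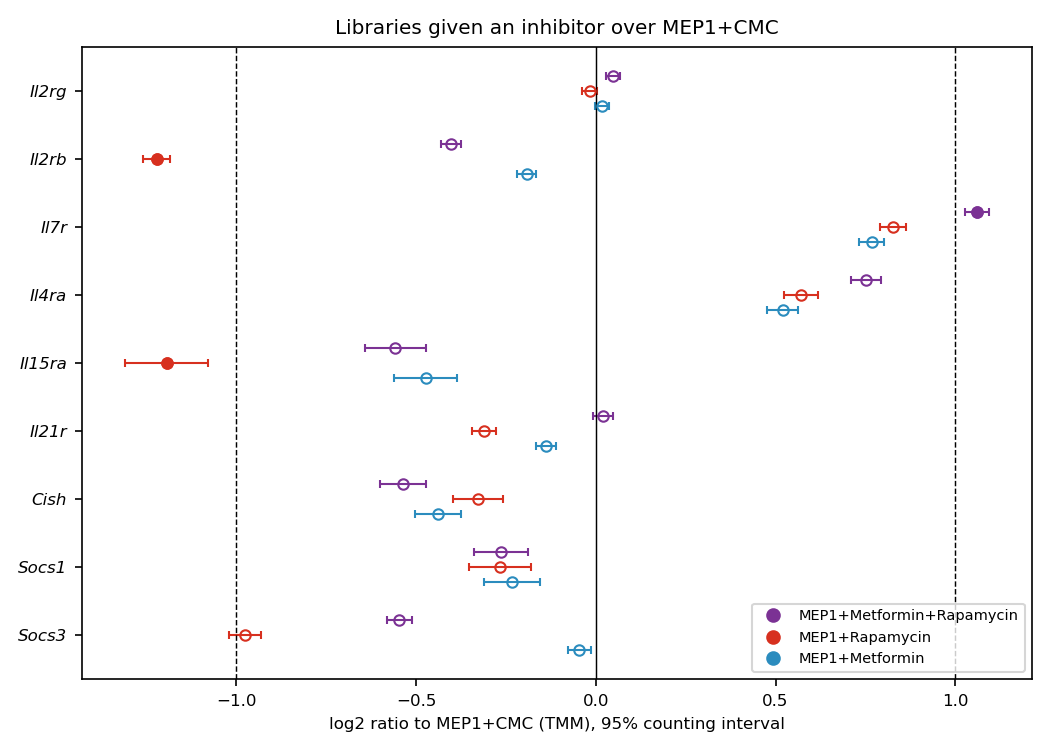
TMM log2 ratio of each gene in the combination, MEP1+Rapamycin and MEP1+Metformin over MEP1+CMC, with 95% counting intervals, where dashed lines mark 2-fold and filled points pass the rule. Il2rb and Il15ra in MEP1+Rapamycin (-1.22 and -1.19) and Il7r in the combination (1.06) are the 3 filled points.

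The 3 inhibitor libraries share 1 sex-linked pattern, so that split does not separate them from each other. In MEP1+Rapamycin against MEP1+Metformin, Il2rb was 2.04-fold lower (log2 ratio -1.03, 95% counting interval -1.07 to -0.99), Socs3 had a log2 ratio of -0.93 and Il15ra of -0.72. This 1 call of 9 stands beside 8.07% of all tested genes, and it is lost with DESeq2 size factors (-0.91) or with TMM factors from the filtered genes (-0.90). In the combination against MEP1+Rapamycin no gene passed, against 6.33% of all tested genes. All 6 receptor chains were higher there, from 0.07 for Il2rg to 0.82 for Il2rb and 0.64 for Il15ra, with DESeq2 size factors or TMM over the filtered genes making it 5 of 6. In the combination against MEP1+Metformin no gene passed, against 2.98% of all tested genes, and Socs3 had the largest difference, at 206 against 291 TMM CPM (-0.50, -0.54 to -0.47).

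Against No treatment, Socs3 was the only gene past the rule in any inhibitor library. It was 2.21-fold lower in MEP1+Rapamycin (log2 ratio -1.15, 95% counting interval -1.19 to -1.10), and this 1 call of 9 stands beside 16.3% of all tested genes. With DESeq2 size factors (-0.97), library totals (-0.87) or TMM over the filtered genes (-0.93) it was not called. No gene passed in MEP1+Metformin, against 14.1% of all tested genes, or in the combination, against 13.4%. Il7r was at log2 ratios of 0.76 in the combination, 0.53 in MEP1+Rapamycin and 0.47 in MEP1+Metformin. Il2rb was at 0.18, -0.64 and 0.39 in the same libraries. The inhibitor libraries also differ from No treatment in MEP1 and in Xist (0.218 to 0.486 against 24.2 TMM CPM). Macrophage and monocyte markers summed to 304.0 to 378 against 2779 TMM CPM. Erythroid and platelet markers summed to 54.6 to 93.5 against 1701 TMM CPM. Inhibitor cannot be told apart from these differences.

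The metformin and rapamycin effects over the 4 libraries given MEP1 were tested with an additive edgeR model, which leaves 1 residual degree of freedom. The metformin term called none of the 9 genes and 0.164% of all tested genes. At an unadjusted p below 0.05 it held 1, Il7r, with a log2 change of 0.50 (SE 0.23, edgeR adjusted p = 0.676), and DESeq2 also held 1 and called 0, but gave no adjusted p for 4 of the 9 genes. For the rapamycin term DESeq2 called 77 of all 12838 tested genes. By edgeR the rapamycin term called none of the 9 genes and 0.203% of all tested genes. At an unadjusted p below 0.05 it held 4: Socs3 with a log2 change of -0.74 (SE 0.22, edgeR adjusted p = 0.352), Il2rb of -0.72 (SE 0.26, edgeR adjusted p = 0.604), Il15ra of -0.63 (SE 0.27, edgeR adjusted p = 0.749) and Il7r of 0.56 (SE 0.23, edgeR adjusted p = 0.693). DESeq2 held 5 and called 1, Socs3 (adjusted p = 0.0251), and over the 12 alternatives its adjusted p ran from 0.0251 to 1.00. A metformin fit with no term for rapamycin called 0 of the 9 genes over all 4 libraries. With 1 library left out, that fit gave log2 changes of -0.29 to 0.93 for Il2rb and -0.52 to 0.68 for Il15ra. For Il7r they were 0.094 to 0.92, for Il4ra 0.068 to 0.64 and for Cish -0.49 to -0.16. Each such fit has a side with 1 library.

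**Figure D4:**
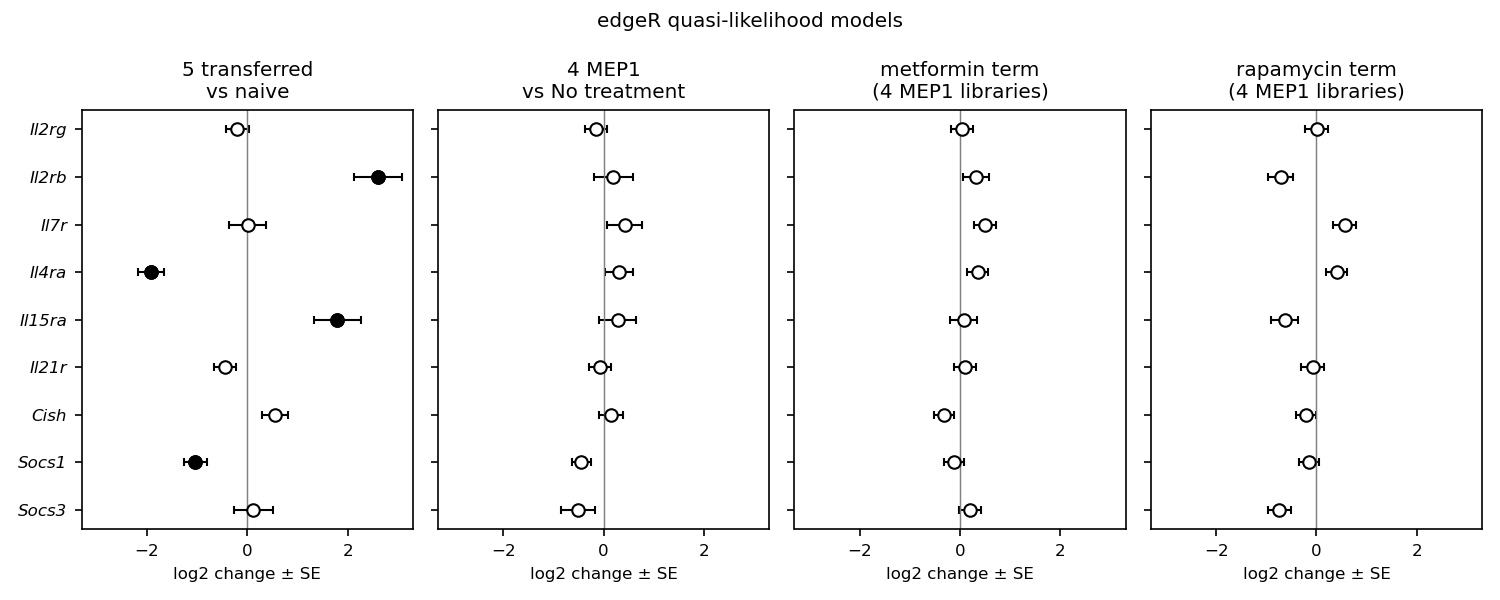
log2 change ± SE of the 9 genes in the 4 edgeR models, with filled points at an adjusted p below 0.05. In the transferred against naive model 4 genes are filled (Il2rb 2.61, Il15ra 1.79, Socs1 -1.03 and Il4ra -1.91), and none is filled in the other 3 models.

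The combination was then set beside the sum of the log2 ratios of the single inhibitors to MEP1+CMC, with no replicate to test the difference. The IL-15 receptor pair departed most. For Il2rb the single ratios summed to -1.41 and the combination stood at -0.40, a difference of 1.01 (95% counting interval 0.96 to 1.06). For Il15ra the sum was -1.67 and the combination -0.56, a difference of 1.11 (0.96 to 1.26). Both genes were thus nearer to MEP1+CMC with both drugs than with rapamycin alone. Il7r went the other way, with a sum of 1.59 and a combination at 1.06, a difference of -0.53 (-0.58 to -0.49), and Il4ra likewise, at -0.34 (-0.40 to -0.28). The differences were 0.48 for Socs3, 0.47 for Il21r, 0.24 for Socs1, 0.23 for Cish and 0.05 for Il2rg. All 4 libraries enter each difference, so the sex-linked split of MEP1+CMC stands in all of them.

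**Figure D5:**
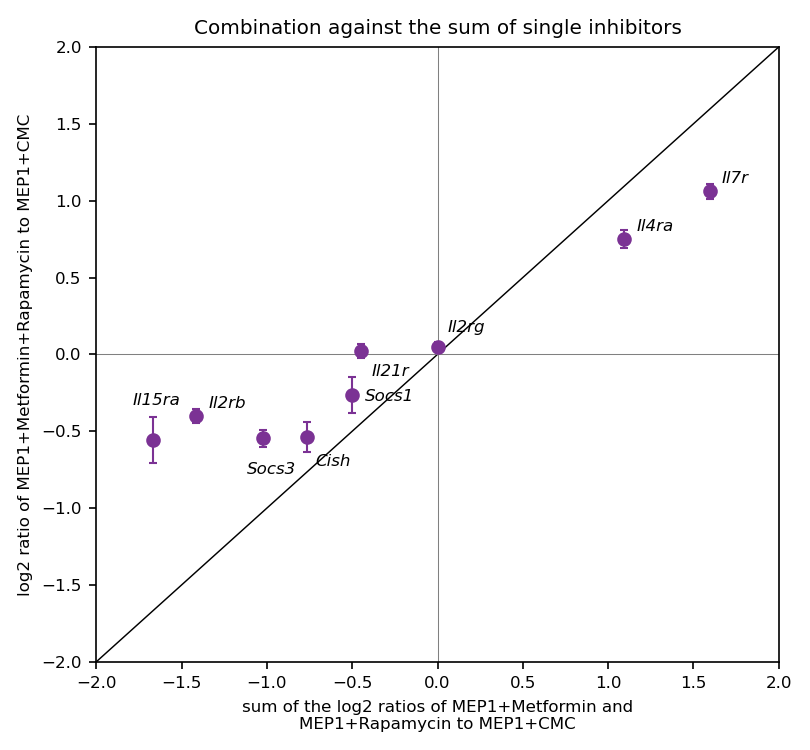
log2 ratio of the combination to MEP1+CMC against the sum of the log2 ratios of MEP1+Metformin and MEP1+Rapamycin to MEP1+CMC, 1 point per gene, with the line where both are equal and error bars that give the 95% counting interval of their difference. Il2rb and Il15ra lie farthest above the line (by 1.01 and 1.11), and Il7r lies farthest below it (-0.53).

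The rest of the pathway was read from 6 lists of 71 genes, of which 65 passed the filter. In transferred against naive libraries DESeq2 called 3729 of all 12838 tested genes and edgeR 1255. The DESeq2 counts per list for that comparison are to be read beside the larger number. Of the other gamma chain receptors and ligands, 7 of 11 passed the filter. In the edgeR test of transferred against naive libraries 2 of those 7 rose and none fell, beside 9.78% of all tested genes called, with a median of 3.68 beside 0.06 for all genes. DESeq2 called 5 of the 7, 4 higher and 1 lower. The 2 called by edgeR were Il9r, the IL-9 receptor chain, with a log2 change of 5.69 (SE 0.63, edgeR adjusted p = 0.00126), and Il4, with 8.04 (SE 1.04, edgeR adjusted p = 0.00284). The naive library held 1 count of Il4, and its log2 ratio of No treatment to naive was 8.06 with a counting interval of 5.57 to 13.4, so the fitted size of Il4 and the list's median rest on very few naive counts. Il2ra, which encodes the high-affinity IL-2 receptor chain, measured 12.7 TMM CPM in the combination, 21.8 TMM CPM in MEP1+Rapamycin, 15.7 TMM CPM in MEP1+Metformin, 13.9 TMM CPM in MEP1+CMC, 5.39 TMM CPM in No treatment and 4.95 TMM CPM in the naive library. Il2ra was thus highest in the transferred library in which Il2rb was lowest. Foxp3, the regulatory T-cell factor, was also highest there, at 115 TMM CPM, against 7.92 to 72.6 TMM CPM in the other 5 libraries. The sum of 5 regulatory T-cell markers, which include both genes, was 376 TMM CPM in the combination, 473 TMM CPM in MEP1+Rapamycin and 371 TMM CPM in MEP1+Metformin. It was 479 TMM CPM in MEP1+CMC, 293 TMM CPM in No treatment and 164 TMM CPM in the naive library. The other markers were split. Ctla4 was at 93.7 TMM CPM in MEP1+Rapamycin against 173 TMM CPM in MEP1+CMC, and Ikzf2 at 43.4 against 61.8 TMM CPM. Tnfrsf18 was at 200 against 179 TMM CPM. The part of regulatory T cells in the receptor levels was not tested. Il21, the ligand of the IL-21 receptor, measured 23.8 TMM CPM in the combination, 12.3 TMM CPM in MEP1+Rapamycin, 37.9 TMM CPM in MEP1+Metformin, 49.3 TMM CPM in MEP1+CMC, 13.0 TMM CPM in No treatment and 0.0538 TMM CPM (1 count) in the naive library. Against MEP1+CMC its log2 ratio was -1.05 in the combination (95% counting interval -1.14 to -0.95) and -2.002 in MEP1+Rapamycin (-2.15 to -1.86), while Il21r had 0.02 and -0.31.

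Of the 14 genes on the list of STAT5 targets, 1 rose and 2 fell in the transferred libraries by edgeR, beside 9.78% of all tested genes called. DESeq2 called 6 of the 14. Tnfrsf4 (OX40, a costimulatory receptor) rose by 3.19 (SE 0.29, edgeR adjusted p = 4.5e-04), while Pim2, a survival kinase, fell by 1.51 (SE 0.22, edgeR adjusted p = 0.00462) and Myc fell by 1.38 (SE 0.26, edgeR adjusted p = 0.0135). The median was 0.43 beside 0.06 for all genes. Bcl2, which opposes cell death downstream of IL-7, was the only gene of the 6 lists called by edgeR in the 4 MEP1 libraries against No treatment, with a log2 change of 1.49 (SE 0.28, edgeR adjusted p = 0.0346). This 1 of 65 stands beside 1.90% of all tested genes. DESeq2 called 2 of the 65 there, Il2ra and Bcl2, and 1149 of all 12838 tested genes. Prdm1 (BLIMP1) had the largest ratio on the list of STAT5 targets in MEP1+Rapamycin against MEP1+CMC, at 10.3 against 56.6 TMM CPM (log2 ratio -2.46, 95% counting interval -2.62 to -2.31). The 3 of 14 genes called there stand beside 11% of all tested genes. Prdm1 also passed the rule against MEP1+CMC in MEP1+Metformin (-1.21) and the combination (-1.26). MEP1+CMC was its highest library. It was at 23.7 TMM CPM in the combination, 24.5 TMM CPM in MEP1+Metformin, 14.0 TMM CPM in No treatment and 5.33 TMM CPM in the naive library.

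The 11 genes of the JAK and STAT list had no call in any of the 4 edgeR tests. At an unadjusted p below 0.05 edgeR held 1 in transferred against naive, 0 in MEP1 against No treatment, 2 in the metformin term and 1 in the rapamycin term, and DESeq2 called 1 of them, Jak2, in transferred against naive and 0 in the others, with 5 of 11 given no adjusted p in the metformin term. In MEP1+Rapamycin against MEP1+CMC, 11 of 11 were below 0, with a median of -0.47 beside -0.13 for all genes. Jak2 was the 1 past the 2-fold rule (87.9 against 197 TMM CPM), and this 1 of 11 stands beside 11% of all tested genes. With DESeq2 size factors, library totals or TMM over the filtered genes, 10 of 11 were below 0. In MEP1+Rapamycin against MEP1+Metformin 11 of 11 were below 0, and in the combination against MEP1+Rapamycin 11 of 11 were above 0, with a median of 0.53 beside 0.13 for all genes, under all 5 scalings. Tyk2 (155 against 69.5 TMM CPM) and Stat5a (131 against 63.01 TMM CPM) passed the rule in the combination against MEP1+Rapamycin, beside 6.33% of all tested genes. These comparisons all share the MEP1+Rapamycin library, so their counts of genes above or below 0 are not independent. Jak3, the kinase bound to the common gamma chain, measured 262 TMM CPM in the combination, 181 TMM CPM in MEP1+Rapamycin, 255 TMM CPM in MEP1+Metformin, 285 TMM CPM in MEP1+CMC, 278 TMM CPM in No treatment and 352 TMM CPM in the naive library.

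Of 15 other SOCS genes and JAK-STAT inhibitors, 1 rose in the transferred libraries, Ptpn11, which encodes the phosphatase SHP2 (log2 change 1.85, SE 0.31, edgeR adjusted p = 0.00820), and none fell. This 1 of 15 stands beside 9.78% of all tested genes, and DESeq2 called 2. Of 12 regulators and partners of Il7r, 1 rose and 2 fell, beside the same 9.78% of all tested genes, and DESeq2 also called 3. Gfi1, a repressor of Il7r in T cells, rose by 1.49 (SE 0.36, edgeR adjusted p = 0.0323), and Klf2 and Lef1, factors of resting T cells, fell by 1.04 (SE 0.24, edgeR adjusted p = 0.0283) and 1.29 (SE 0.31, edgeR adjusted p = 0.0319). Of 8 tested receptors restrained by SOCS3 or SOCS1, 1 fell, Ifngr2, the second interferon gamma receptor chain (log2 change -1.26, SE 0.25, edgeR adjusted p = 0.0163). That 1 of 8 stands beside the same 9.78%, and DESeq2 called 4 of the 8. The medians of these 3 lists were 0.23, -0.14 and 0.01 beside 0.06 for all genes. Of the 65 list genes, edgeR called 0 in the metformin term (3 at an unadjusted p below 0.05) and 0 in the rapamycin term (8 at an unadjusted p below 0.05). DESeq2 called 0 in the metformin term, where 48 of the 65 had no adjusted p, and 1 in the rapamycin term, Il21.

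The genes whose profile over the 6 libraries lay nearest to each member were found by the root mean square difference of centred log2(TMM CPM + 0.5), among 8619 other genes averaging at least 10 TMM CPM. Nearest to Il2rb were Abcb1a and Clstn1 (0.178 and 0.179), to Il15ra Btbd11 and Nsmaf (0.0873 and 0.0930), to Il7r Spice1 and Ampd3 (0.119 and 0.132), and to Il4ra Prkd3 and Fntb (0.111 and 0.111). For the other receptor chains they were Wdr75 and Coq2 for Il2rg (0.0241 and 0.0289) and Rrp1 and Nipal1 for Il21r (0.0327 and 0.0349). For the feedback genes they were Cd99l2 and Pkmyt1 for Cish (0.0775 and 0.0797), Ppp1r18 and Map3k10 for Socs1 (0.0482 and 0.0488), and Nupl2 and Abi1 for Socs3 (0.0833 and 0.107). Abcb1a, the nearest to Il2rb, measured 53.2 TMM CPM in the combination, 34.6 TMM CPM in MEP1+Rapamycin, 55.0 TMM CPM in MEP1+Metformin, 72.5 TMM CPM in MEP1+CMC, 49.9 TMM CPM in No treatment and 6.41 TMM CPM in the naive library. No gene nearest to a member was itself a member.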

How the data were processed

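RNA of sorted splenic CD4 T cells was sequenced after an ultra-low-input preparation, per the labels. The deposited values are whole-number read counts for each Ensembl gene, summed over exons on GRCm38 and not normalized. Trimmomatic 0.36, STAR 2.5.2b and featureCounts (Subread 1.5.2) are named, per the submitters' processing notes. The sources used here give neither the strand setting nor the annotation release, so reads of Il4ra and Cish cannot be told from those of the opposite-strand genes Gm44876, Gm17040 and Gm17041, which had at most 9 counts in any library. Symbols came from GENCODE M21 for 48970 of 49315 identifiers.

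TMM factors were computed over all genes (edgeR 4.0.16, R 4.3.3). Genes with at least 2 TMM CPM and 10 counts in 1 library were kept. A pair of libraries was described by its TMM log2 ratio with a 95% interval from both counts (exact, Clopper-Pearson; scipy 1.17.1), called at 2-fold or more with the interval past no change. A count of 0 is set to a floor of 3. No molecular identifiers are described, and reads without them do not count independent molecules, so intervals and floors cover counting error only. Each group had 1 library. In the edgeR models (glmQLFit and glmQLFTest, robust) the spread includes treatment differences on the same side, and a lone library is assumed to vary as the others do. Their p-values reflect only how these libraries spread. The scripts were tested on simulated data. DESeq2 1.42.0, other scalings, filters and left-out libraries were alternatives.

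The members and lists were chosen with earlier results of these data known. Named list genes passed the call rule, at most 4 per list and comparison. Levels of Il2ra, Foxp3, Ctla4, Ikzf2, Tnfrsf18 and Jak3 were added after their values were seen. The TMM factors from the filtered genes and the comparisons of the other 4 transferred libraries with the naive library were added after seeing the data.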

Additional observations from a re-analysis of the deposited data

Results flagged for a closer look

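For some genes the effect of one inhibitor had opposite signs with and without the other. The difference was not tested, as each value rests on single libraries, and it equals the departure from additivity given above. The log2 ratio for adding metformin to rapamycin minus that for metformin without rapamycin was 1.01 for Il2rb (0.82 with rapamycin, -0.19 without), 1.11 for Il15ra (0.64 and -0.47), 0.47 for Il21r (0.33 and -0.14) and 0.48 for Socs3 (0.43 and -0.05). For Il21r the rapamycin effect also changed sign, at 0.16 with metformin and -0.31 without, a difference of 0.47. No group had more than 1 library, so libraries far from the rest of their group could not be looked for.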

How the results depend on the processing

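Of 124 recomputed member counts, 106 were within 1.5 times the value in the report. Counts of 0 that stayed at 0 are included in the 106. At a 1.5-fold rule the members called were 1 in MEP1+CMC against No treatment, 1 in MEP1+Metformin, 4 in MEP1+Rapamycin and 2 in the combination against MEP1+CMC, 2 in the combination against MEP1+Rapamycin, 3 in MEP1+Rapamycin against MEP1+Metformin, and 2 each in MEP1+Rapamycin and the combination against No treatment. Over the 11 pairs, 1071 to 5206 of all 12838 tested genes were called at that rule, so these member counts stand beside a larger background. At the 2-fold rule, MEP1+Rapamycin against MEP1+Metformin held 0 with DESeq2 size factors or TMM over the filtered genes. MEP1+Rapamycin against No treatment held 0 with these or library totals. With 1 library left out, edgeR called 2 to 4 members in transferred against naive. For metformin the calls moved with the library left out, in a fit that also dropped the rapamycin term. That fit called 0 members over all 4 libraries. Over all 4 libraries DESeq2 called 1 in the rapamycin term. Fits that leave a side with 1 library assume that it varies like the others.

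Uncalled model values that changed sign were, in transferred against naive, Il7r with the DESeq2 Wald test (-0.013), DESeq2 size factors (-0.013) and left-out libraries (-0.12 to 0.13), and Il2rg (0.39) and Il21r (0.15) with library totals. In MEP1 against No treatment they were Il2rg (0.058) and Il21r (0.14) with library totals, and Il21r with the Wald test (0.021), DESeq2 size factors (0.0081) and filtered TMM (0.025). In the metformin term they were Il2rg with the same 3 (-0.0092, -0.021 and -0.020), Il15ra without a rapamycin term (-0.045), and, in that fit with 1 library left out, Il2rb (-0.29 to 0.93), Il15ra (-0.52 to 0.68), Il21r (-0.057 to 0.25), Socs1 (-0.25 to 0.020) and Socs3 (-0.27 to 0.70). In the rapamycin term, with no metformin term and 1 library left out, they were Il2rg (-0.026 to 0.040), Il21r (-0.24 to 0.088) and Cish (-0.43 to 0.012). The cause was not tested.

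Over all tested genes, calls per pair were 382 to 3078, against 37 to 1178 with the stricter filter, 3458 to 9246 without a filter and 1071 to 5206 at 1.5-fold. Model calls over alternatives were 684 to 3729 (1255 in the report), 101 to 1149 (244), 0 to 2601 for metformin (21) and 0 to 273 for rapamycin (26). No paired analysis was possible because each group has 1 library and the labels give no shared replicate numbers. Variation between mice was not measured, and the lowest count of a member was 178.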
